A study of Danio rerio with 72 samples.

Results

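The translation initiation factors (eIF) and elongation factors (eEF) of the zebrafish were followed through the posterior presomitic mesoderm, the unsegmented tissue of the tail from which somites are cut. Members were all probe sets whose annotation gave a single gene symbol that began with eif or eef followed by a digit. The array held 80 such probe sets for 64 genes among 15502 probe sets that were not controls, which name 8793 genes in all. Of these, 69 probe sets for 60 genes were bright enough to be tested, among 10126 tested in all.

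Initiation starts when eIF2 carries the initiator tRNA to the small ribosomal subunit, together with eIF1A, eIF3 and eIF5. The cap-binding complex eIF4F, built from eIF4E, eIF4G and the helicase eIF4A, brings in the mRNA, and eIF5B then joins the subunits. eIF2B recharges eIF2 with GTP, and stress kinases such as eIF2ak3 (PERK) slow this step by phosphorylating eIF2, while 4E-binding proteins hold eIF4E away from eIF4G. During elongation eEF1A delivers charged tRNAs, the eEF1B subunits recharge eEF1A, and eEF2 moves the ribosome along, unless it is phosphorylated by its kinase eEF2K.

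The study placed amplified RNA of dissected embryos, raised from the AB line to about the 12-somite stage, on 72 arrays in 19 groups of 2 to 4 arrays. Wild-type embryos were kept for 1.5 h or 3 h at 24 °C in retinoic acid (RA), in DAPT, a gamma-secretase inhibitor that blocks Notch cleavage, or in the DMSO that served as the control of each drug. Other embryos carried transgenes driven by a heat-shock promoter, which acts in all cells, and were set against embryos given the same heat shock. After 30 min at 37 °C, wild type and Tg(hsp701;dnfgfr1-EGFP), a dominant-negative Fgf receptor, were dissected 30 min or 1 h later. The lines Tg(hsp:70:DeltaTcF-gfp), a repressing form of a Wnt effector, Tg(hsp:70:dkk1-gfp), a secreted Wnt inhibitor, and Tg(hsp:70:wnt8a-gfp), a Wnt ligand, were dissected 1 h later. After 1 h of heat shock, Tg(hsp70;gal4VP16) alone or crossed to Tg(UAS:myc-notch1a-intra), which gives active Notch, was dissected 45 or 90 min later, so that the activator gal4VP16 was present in both groups. Replicates were called biological by the labels, with no word on clutch or day. The p-values rest on the spread between these samples within groups, pooled over all 19 groups.

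Levels below are log2(signal + 16) after quantile normalization, and differences are differences of that level. They are set within a probe set across groups, since the signals of different probe sets cannot be read as abundance. A member is said to have risen or fallen where limma gave a Benjamini-Hochberg adjusted p under 0.05 over all 10126 tested probe sets. In dissected tissue, fewer cells of a type and less RNA per cell cannot be told apart.

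All 12 markers of the posterior presomitic mesoderm and tail bud with a probe set lay in the upper part of the array by level, with a median percentile of 92.4. All 7 epidermis markers did too, with a median percentile of 86.0. Group means of the heat-shock gene hsp70.3 lay between 8.98 and 12.63 after heat shock and between 4.64 and 5.77 with drugs. The gene dkk1b had a mean of 13.05 in the dkk1 line and of 12.81 ± 0.09 (SD, n = 4) where the label was DeltaTcf. Its means elsewhere were 4.58 to 6.84. The Wnt feedback gene axin2 averaged 9.22 ± 0.34 (SD, n = 4) in wild type at 1 h, 5.83 ± 0.23 in DeltaTcf, 5.68 ± 0.37 in dkk1 and 8.08 ± 0.26 in wnt8a. It was thus lower than in wild type in the wnt8a line too, although that transgene encodes a Wnt ligand. Raised notch1a was present in all libraries of notch1a-intra at 90 min, with a mean of 11.85, and ranged from 8.0 to 11.83 at 45 min, where replicates 2 and 4 lacked it. Results that rest on these libraries are given as those of the libraries so labelled.

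Members were bright. Their median percentile of level was 90.5 over all 80 and 92.7 over the 69 tested, and 41 lay above the 90th percentile. The 11 untested probe sets belonged to eef1a1a, eef1a1b, eef2l2, eif4e1b, and further probe sets of eif2ak3, eif4e3 and eif4g3a, and the genes eef1a1a, eef1a1b, eef2l2 and eif4e1b had no tested probe set. The brightest member was eef1a1l1 (Dr.261.1.S1_at), an eEF1A gene, with a mean level of 12.92. The dimmest was a probe set of the kinase eif2ak3 (Dr.15219.1.S1_at) with a mean of 4.24, although another probe set of that gene (Dr.15219.2.S1_a_at) lay at the 83.6th percentile.

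Group means of a member spanned a median of 1.08 from the lowest to the highest group, against 1.26 over all tested probe sets. Its residual SD between replicates had a median of 0.187, against 0.284. Within the brightest 10% of tested probe sets, which held 34 members, the median span was 0.784 for members and 0.999 for all, and the median residual SD was 0.144 against 0.176. A span above 1 was found for 40 members (58.0%) and for 72.4% of all tested probe sets. These shares were not tested against each other.

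The widest span was that of eif4a1a (Dr.24841.2.S1_at), a gene of the eIF4A helicase, which averaged 8.15 in gal4 at 90 min and 12.15 in RA at 3 h. Its other probe set (Dr.24841.1.S1_at) ran from 9.71 in gal4 at 90 min to 11.87 in DAPT at 3 h. The kinase gene eif2ak3 spanned 2.60, from 6.42 in RA at 3 h to 9.02 in the dkk1 line. The 4E-binding protein gene eif4ebp3l spanned 2.43, from 7.23 in wild type at 30 min to 9.66 in gal4 at 45 min. The eEF2 gene eef2a.1 ran from 5.58 in gal4 at 45 min to 7.77 in RA at 3 h, and eif4e1c (Dr.7525.1.A1_at), a cap-binding protein gene, from 7.06 in dkk1 to 9.20 in DMSO at 3 h of the DAPT experiment. Many of these spans cross experiments that differ in temperature and handling, so they describe the range only and no test was made on them.

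At the other end stood eef1a1l1 with a span of 0.16, eef1e1 with 0.33, eif3ba with 0.35 and eef2b with 0.40. The gene eef1e1 encodes a partner of the multi-tRNA synthetase complex and eif3ba a core eIF3 subunit. The bright genes eef1a1l1 and eef2b lay at the 99.9th percentile, where quantile normalization sets a value almost by its rank. Without that step (the deposited scaling), eef1a1l1 differed from wild type at 1 h by 0.70 in dkk1 and 0.51 in wnt8a. After normalization these differences were 0.05 and 0.06. For eif3ba they were 0.31 and 0.22 under the deposited scaling, against 0.02 and 0.00. The flatness of these genes is thus that of the normalized levels. The lowest group mean of a member was found most often in dkk1 (13 members), gal4 at 90 min (12), gal4 at 45 min (8) and wild type at 1 h (8). The highest was found most often in RA at 3 h (12) and DAPT at 1.5 h (9). How often all tested probe sets were lowest or highest in each group was not counted. These counts thus have no baseline and are not read as particular to members.

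**Figure D1:**
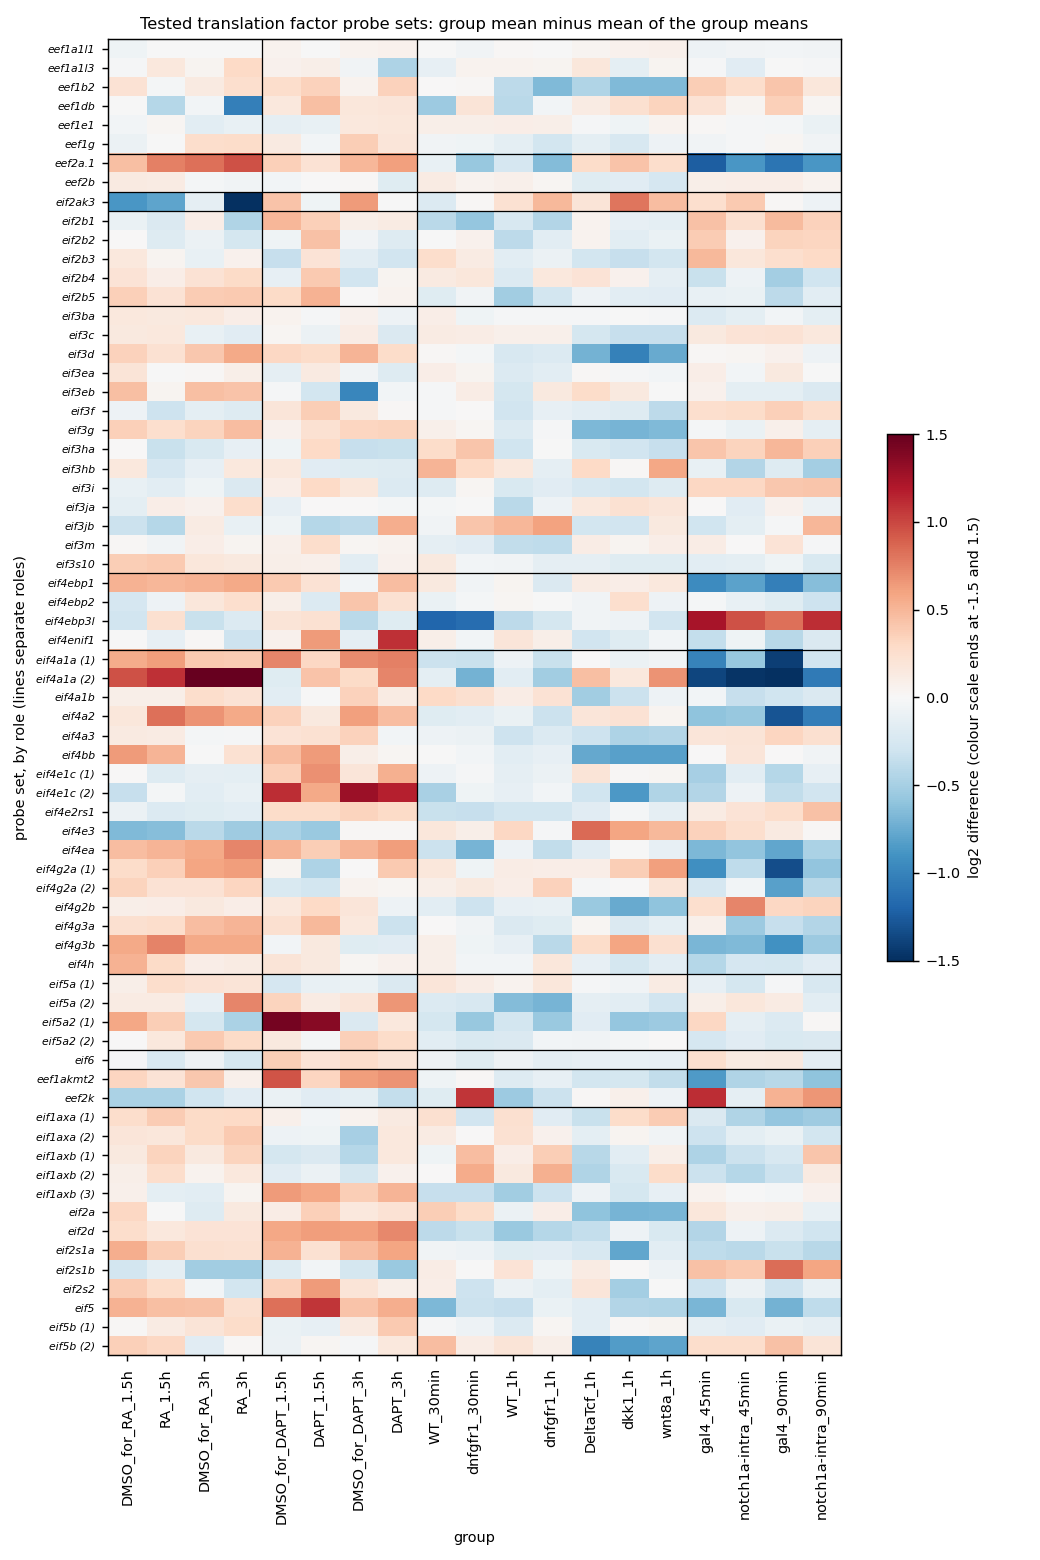
Heat map of the 69 tested member probe sets (rows, ordered by role) over the 19 groups (columns, vertical lines between experiments). Colour gives the group mean minus the probe set's mean over groups on the log2 scale after quantile normalization. It shows the wide rows of eif4a1a, eif2ak3 and eif4ebp3l beside the row of eef1a1l1, which is flat on that scale.

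Over 18 comparisons of 2 groups, 52 of the 69 tested members passed the test at least once and 17 never did. There were 117 calls in 1242 tests, 9 of them with a difference of 1 or more. Of the calls, 55 were made in the libraries labelled DeltaTcf, in dkk1 and in wnt8a, each against wild type at 1 h. Of all tested probe sets, 20.6%, 24.6% and 16.2% were called there, and 2.53% to 6.87% in each other comparison of 2 groups. Calls were thus most frequent in these lines over the whole array too, and the 55 are not read as particular to members. For the 52 members and 117 calls, no count over all tested probe sets was pooled across comparisons, so they have no baseline. Members with no call included eef1a1l1 and eef1a1l3, the start codon factor eif5, which triggers GTP hydrolysis on eIF2, eif6, which keeps the large ribosomal subunit apart, eif4h, a helper of eIF4A, and the eIF3 subunit genes eif3ba, eif3hb and eif3s10. A missed threshold does not show that their levels were equal.

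**Figure D2:**
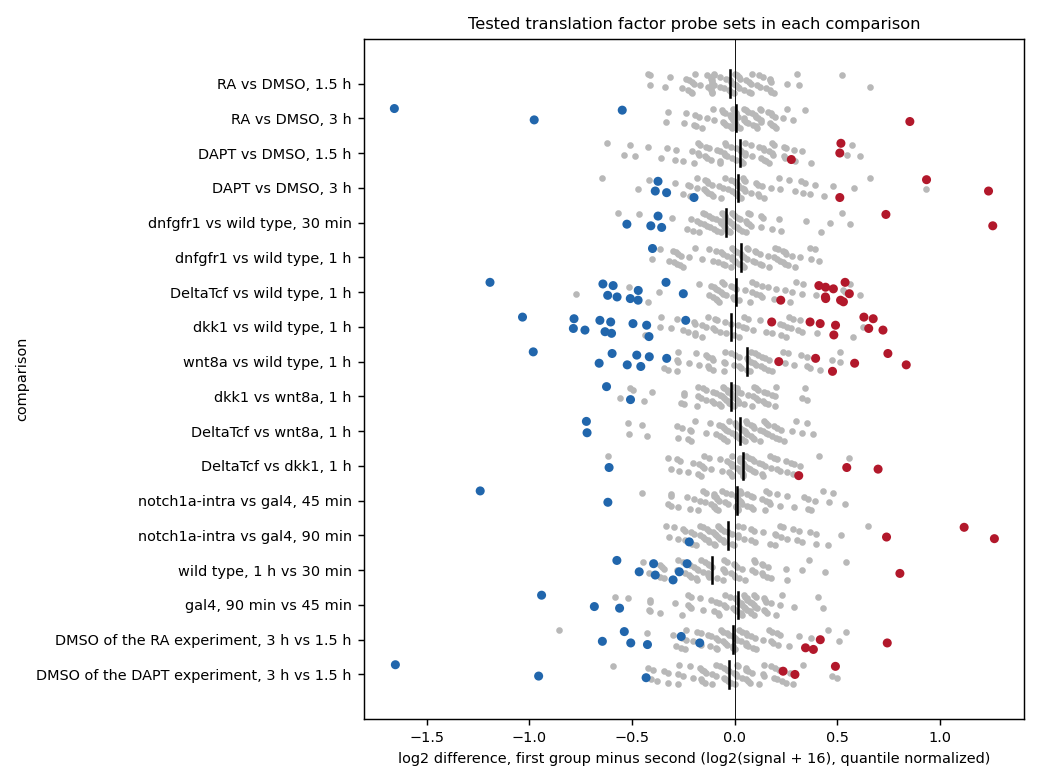
Log2 difference of each of the 69 tested members (points) in each comparison, red where it rose, blue where it fell and grey where it did not pass the test, with a black bar at the median of the members. Medians lie near 0 throughout, from −0.11 to 0.06, and the called points are most frequent in the 3 lines with Wnt pathway transgenes.

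The lines with Wnt pathway transgenes held the most calls. In the libraries labelled DeltaTcf, 10 members rose and 10 fell against wild type at 1 h, 29.0% of members against 20.6% of all tested probe sets (9.92% higher and 10.6% lower). In dkk1, 9 rose and 12 fell, 30.4% of members against 24.6% of all (12.5% higher and 12.1% lower). In wnt8a, 6 rose and 8 fell, 20.3% of members against 16.2% of all (7.84% higher and 8.39% lower). The median difference of members was 0.01, −0.02 and 0.06, against 0.00, −0.01 and 0.01 over all tested probe sets. Under the deposited scaling the medians of members were 0.11, 0.07 and 0.06, against 0.01, −0.02 and 0.00 over all. Rises and falls stood side by side within complexes.

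All 3 comparisons used the same 4 wild-type arrays, so their values are given side by side and are not independent. In all 3, 10 members were called in the same direction, the wnt8a line included. How many of all tested probe sets did so was not counted, so the 10 are not read as particular to members. Whether any of these calls follows from Wnt signalling was not tested. The GAPDH 3′ to 5′ log2 ratio, a measure of RNA integrity and amplification, was 2.63 ± 0.45 (SD, n = 4) in wild type at 1 h, 1.99 ± 0.40 in DeltaTcf, 2.37 ± 0.72 in dkk1 and 1.69 ± 0.20 in wnt8a. The 3′ to 5′ log2 ratio of the actin gene acta1 was 4.23 ± 1.42 (SD, n = 4), 2.48 ± 1.24, 1.51 ± 0.95 and 2.29 ± 0.90 in the same order. The part of either in the results was not tested.

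Among start codon and ternary complex factors, 13 probe sets were tested. In DeltaTcf 1 rose and 4 fell, in dkk1 1 rose and 4 fell, and in wnt8a 1 rose and 2 fell, with medians of −0.08, −0.20 and 0.02. Of all tested probe sets, 20.6%, 24.6% and 16.2% were called in these lines, so the counts are not read as particular to this role. The largest fall among these factors was that of eif5b (Dr.25723.1.A1_at), the subunit-joining GTPase.

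In wild type at 1 h, eif5b read 9.43, 9.59, 9.44 and 9.22. The libraries labelled DeltaTcf read 8.15, 8.23, 8.33 and 8.20. The dkk1 libraries read 8.32, 8.32, 8.47 and 8.44, and those of wnt8a 8.76, 8.31, 8.56 and 8.13. Every library of the 3 lines lay below every wild-type library, and below the 9.16 to 9.41 of dnfgfr1 at the same time. The gene fell by 1.19 ± 0.10 (SE; 2.28-fold, limma with Benjamini-Hochberg adjusted p = 4.63e-14) in DeltaTcf. It fell by 1.03 ± 0.10 (SE; 2.05-fold, adjusted p = 5.01e-12) in dkk1 and by 0.98 ± 0.10 (SE; 1.97-fold, adjusted p = 6.07e-11) in wnt8a. Its other probe set (Dr.25424.1.A1_at) did not follow: it read 9.47 to 9.54 in wild type, 9.51 to 9.62 in DeltaTcf, 9.68 to 9.82 in dkk1 and 9.62 to 9.87 in wnt8a, and passed the test in none of the comparisons. The 2 probe sets of eif5b thus disagree, and which reading holds for the gene was not tested.

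The gene eif2a, whose protein is a separate initiator tRNA factor and not a subunit of eIF2, read 7.92 to 8.14 in wild type at 1 h. It read 7.40 to 7.62 in DeltaTcf, 7.10 to 7.58 in dkk1 and 7.34 to 7.60 in wnt8a, with no overlap. It fell by 0.51, 0.60 and 0.60 in that order (limma with Benjamini-Hochberg adjusted p = 0.00262, 0.000294 and 0.000548). It had also fallen by 0.47 ± 0.13 (SE) between 30 min and 1 h in wild type itself, from 8.50 to 8.03 (adjusted p = 0.0227).

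The eIF2 subunit genes eif2s1a and eif2s2 set the dkk1 libraries apart. The alpha subunit gene eif2s1a read 9.01, 9.18, 9.33 and 9.33 in dkk1. It read 9.69 to 9.94 in wild type at 1 h, 9.68 to 9.84 in DeltaTcf and 9.60 to 10.01 in wnt8a, all above the dkk1 libraries. The beta subunit gene eif2s2 read 9.46 to 9.83 in dkk1, against 9.88 to 10.34 in wild type, 10.21 to 10.56 in DeltaTcf and 10.07 to 10.33 in wnt8a. In dkk1, eif2s1a fell by 0.60 (adjusted p = 0.000192, limma) and eif2s2 fell by 0.43 (adjusted p = 0.00636, limma) against wild type. In DeltaTcf and wnt8a neither passed the test against wild type. The other alpha subunit gene, eif2s1b, did not share this pattern. It averaged 9.47 in wild type, 9.27 in dkk1 and 9.19 in wnt8a, and was called in none of the comparisons.

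Probe sets of the eIF1A genes, whose protein scans for the start codon with eIF1, differed among themselves. For eif1axa, Dr.15002.1.S1_a_at read 9.42, 9.65, 9.32 and 9.65 in DeltaTcf, below the 9.95 to 10.27 of wild type, 9.96 to 10.40 of dkk1 and 10.13 to 10.34 of wnt8a. It fell by 0.57 ± 0.12 (SE; limma with Benjamini-Hochberg adjusted p = 0.000389) in DeltaTcf against wild type. The other probe set of eif1axa (Dr.15002.1.S1_at) was called in none of the comparisons, with −0.37 in DeltaTcf (adjusted p = 0.181, limma). For eif1axb the probe sets went opposite ways in DeltaTcf. Dr.20386.2.S1_at read 8.23 to 8.83 in wild type and 7.62 to 8.13 in DeltaTcf, and fell by 0.59 ± 0.19 (SE; adjusted p = 0.0211, limma). Dr.20386.3.S1_at read 8.88 to 9.20 in wild type and 9.22 to 9.69 in DeltaTcf, and rose by 0.44 ± 0.13 (SE; adjusted p = 0.0102, limma). No direction can therefore be given for the gene. In wnt8a the latter rose by 0.39 (adjusted p = 0.0277, limma). The gene eif2d, a further factor that loads initiator tRNA, rose by 0.48 in dkk1 (adjusted p = 0.00347, limma). It read 7.02 to 7.17 in wild type and 7.41 to 7.87 in dkk1. For eif2d and for Dr.20386.3.S1_at of eif1axb, wild type at 1 h was the lowest of all 19 groups.

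**Figure D3:**
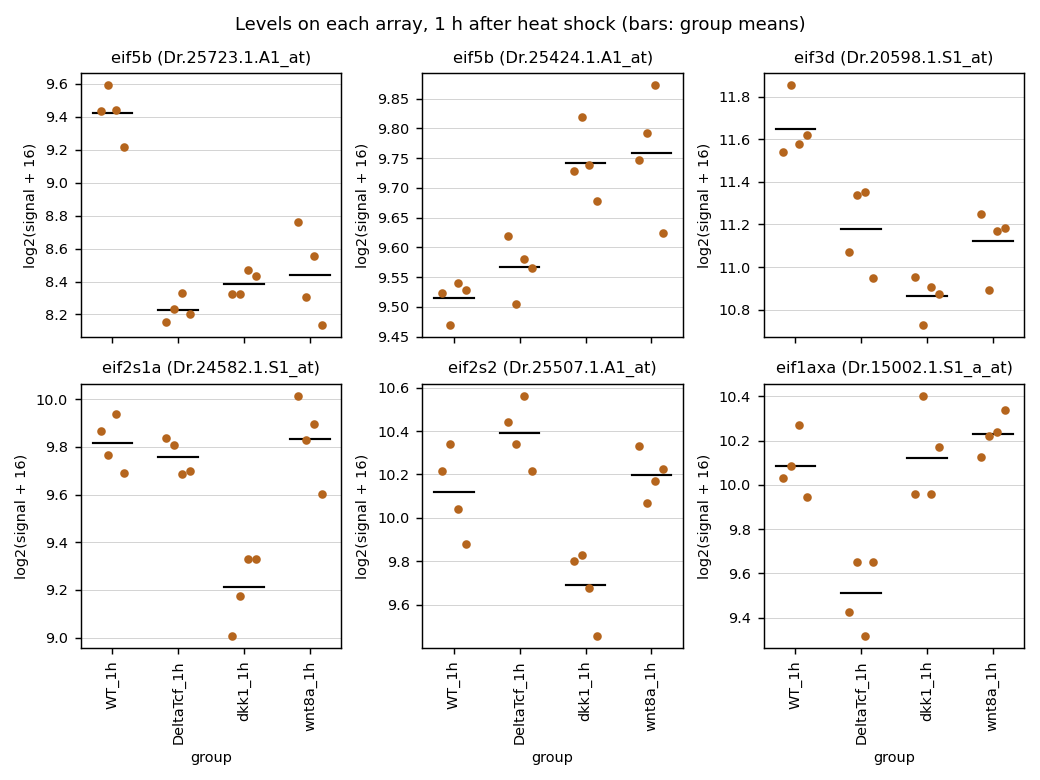
Log2 level of eif5b (both probe sets), eif3d, eif2s1a, eif2s2 and eif1axa on each of 4 arrays (points) of wild type, DeltaTcf, dkk1 and wnt8a 1 h after heat shock, with bars at the group means. The probe set Dr.25723.1.A1_at of eif5b and eif3d lie lower in all 3 lines, eif2s1a and eif2s2 lower in dkk1, and eif1axa lower in DeltaTcf.

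Of 5 eIF2B genes, 3 rose in DeltaTcf, 1 in dkk1 and 0 in wnt8a, and none fell, with medians of 0.41, 0.24 and 0.09. Of all tested probe sets 9.92%, 12.5% and 7.84% rose there, and these small counts are not read as particular to eIF2B. At an unadjusted p under 0.05 the members of all roles numbered 29, 31 and 23 in the 3 comparisons. No share over all tested probe sets was counted at that threshold, so these numbers have no baseline. The subunit gene eif2b2 read 8.78 to 9.08 in wild type and 9.30 to 9.51 in DeltaTcf, and rose by 0.44 ± 0.11 (SE; limma with Benjamini-Hochberg adjusted p = 0.00289). The gene eif2b4 rose by 0.41 (adjusted p = 0.0128, limma) and eif2b5 by 0.44 (adjusted p = 0.0143, limma) there, and eif2b5 rose by 0.37 in dkk1 (adjusted p = 0.0398, limma). For eif2b2 and eif2b5 the wild type at 1 h was the lowest of all 19 groups. Wild type at 30 min read 9.20 to 9.51 for eif2b2, within the range of the DeltaTcf libraries.

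Among 14 eIF3 subunits, the scaffold that links the ribosome to eIF4F, 3 rose and 3 fell in DeltaTcf, 2 rose and 4 fell in dkk1, and 2 rose and 3 fell in wnt8a. The medians were 0.04, −0.01 and −0.02. Of all tested probe sets 20.6%, 24.6% and 16.2% were called in these lines, and the counts are not read as particular to eIF3. The subunit gene eif3d read 11.54 to 11.85 in wild type, 10.95 to 11.35 in DeltaTcf, 10.73 to 10.95 in dkk1 and 10.89 to 11.25 in wnt8a, with each line below wild type. It fell by 0.47, 0.78 and 0.52 (limma with Benjamini-Hochberg adjusted p = 3.89e-05, 2.66e-10 and 8.02e-06). The gene eif3g fell by 0.47, 0.50 and 0.46 (adjusted p = 0.000102, 2.93e-05 and 0.00021, limma). Its wild-type libraries read 11.26 to 11.54 and those of the 3 lines 10.71 to 11.08. The gene eif3c read 10.93 to 11.07 in wild type and 10.49 to 10.81 in the 3 lines, and in dkk1 and wnt8a it fell by 0.42 in each (adjusted p = 1.16e-05 and 2.77e-05, limma).

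The gene eif3m moved the other way. It read 10.82 to 11.14 in wild type, 11.24 to 11.51 in DeltaTcf, 11.19 to 11.43 in dkk1 and 11.33 to 11.47 in wnt8a. It rose by 0.48, 0.42 and 0.48 (limma with Benjamini-Hochberg adjusted p = 4.95e-07, 5.55e-06 and 9.57e-07). The gene of the loosely held subunit eif3ja rose by 0.56, 0.63 and 0.58 (adjusted p = 0.00159, 0.00029 and 0.00125, limma). Its wild-type libraries at 1 h, 9.48 to 9.72, were the lowest group of all 19. Wild type at 30 min read 9.89 to 10.17, beside 10.09 to 10.39 in DeltaTcf and dkk1 at 1 h.

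Among 17 probe sets of eIF4F and its helpers, 1 rose and 2 fell in DeltaTcf, 1 rose and 3 fell in dkk1, and 1 rose and 2 fell in wnt8a. Of all tested probe sets 20.6%, 24.6% and 16.2% were called there. The gene eif4bb, a helper that stimulates eIF4A, read 9.86 to 10.16 in wild type at 1 h and 9.23 to 9.56 over the 12 libraries of the 3 lines. The dnfgfr1 line at the same time read 9.89 to 10.22, like wild type. The gene fell by 0.62, 0.66 and 0.66 (limma with Benjamini-Hochberg adjusted p = 0.000176, 5.13e-05 and 8.95e-05). The helicase gene eif4a1b fell by 0.64 in DeltaTcf (adjusted p = 0.00545, limma), and eif4a1a (Dr.24841.2.S1_at) rose by 0.84 in wnt8a (1.78-fold, adjusted p = 0.0133, limma), with 10.13 to 10.39 in wild type and 11.01 to 11.23 in wnt8a. The other probe set of eif4a1a (Dr.24841.1.S1_at) did not follow, with a difference of 0.02 in wnt8a (adjusted p = 0.952, limma).

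Cap-binding and scaffold paralogs went separate ways. The gene eif4e3, which encodes a divergent cap-binding protein, read 9.17 to 9.36 in wild type and 9.60 to 10.05 in DeltaTcf, and rose by 0.54 (adjusted p = 0.00188, limma). In dkk1, eif4e1c (Dr.7525.1.A1_at) fell by 0.73 (adjusted p = 0.00841, limma), with 7.66 to 8.02 in wild type and 6.84 to 7.27 in dkk1. The other probe set of eif4e1c (Dr.26513.1.S1_at) did not follow, with a difference of 0.15 in dkk1 (adjusted p = 0.520, limma). The scaffold gene eif4g3b rose by 0.72 in dkk1 (adjusted p = 0.00044, limma), with 6.42 to 6.79 in wild type and 7.03 to 7.56 in dkk1. The gene eif4g2b encodes an eIF4G relative that does not bind eIF4E. It read 8.06 to 8.11 in wild type and 7.33 to 7.62 in dkk1, and fell by 0.63 there and by 0.48 in wnt8a (adjusted p = 0.00253 and 0.0348, limma). None of 4 eIF4E-binding repressor and transporter genes passed the test in these 3 comparisons, nor did the kinase gene eif2ak3, which differed by 0.58 in dkk1.

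Of the elongation factors, eef1db, a subunit of the exchange factor of eEF1A, rose by 0.53, 0.65 and 0.75 (limma with Benjamini-Hochberg adjusted p = 0.0375, 0.00746 and 0.00353). Its libraries read 10.45 to 10.81 in wild type, 11.04 to 11.31 in DeltaTcf, 11.18 to 11.35 in dkk1 and 11.15 to 11.43 in wnt8a, with no overlap. The gene eef2b fell by 0.25, 0.24 and 0.33 (adjusted p = 1.65e-05, 2.31e-05 and 6.21e-08, limma), but under the deposited scaling the differences were 0.36, 0.28 and 0.06, so its direction depends on the scaling. The eEF2 gene eef2a.1 read 6.30 to 6.84 in wild type and 6.91 to 7.53 in dkk1, and rose there by 0.67 or 1.60-fold (adjusted p = 0.0107, limma). Of all tested probe sets, 9.92%, 12.5% and 7.84% rose in DeltaTcf, dkk1 and wnt8a. Of 4 probe sets of eIF5A, a factor that helps stalled ribosomes, 1 rose in DeltaTcf, 2 in dkk1 and 1 in wnt8a. They were eif5a (Dr.20010.3.S2_at), with 0.52 in DeltaTcf and 0.49 in dkk1, where the arrays overlapped wild type, and eif5a2 (Dr.8.1.S2_at), with 0.18 in dkk1 and 0.21 in wnt8a (adjusted p = 0.0497 and 0.0248, limma). The other probe set of eif5a2 (Dr.8.1.S1_at) differed by −0.31 in dkk1 and −0.28 in wnt8a. That of eif5a (Dr.20010.3.S1_at) differed by −0.10 in dkk1, and none of these passed the test.

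The 3 lines were then set against each other. Between dkk1 and wnt8a 0 members were higher in dkk1 and 2 lower, beside 3.28% of all tested probe sets (1.54% higher and 1.74% lower). These were eif2s1a, at 9.21 ± 0.15 in dkk1 and 9.84 ± 0.17 in wnt8a (SD, n = 4 each), a difference of −0.62 ± 0.13 (SE; limma with Benjamini-Hochberg adjusted p = 0.00121), and eif2s2, at 9.69 ± 0.17 and 10.20 ± 0.11, a difference of −0.51 ± 0.12 (SE; adjusted p = 0.00864). Between DeltaTcf and wnt8a 2 were lower in DeltaTcf, beside 2.53% of all (1.22% higher and 1.3% lower). They were eif1axa, by 0.72 (adjusted p = 8.44e-05, limma), and eif1axb (Dr.20386.2.S1_at), by 0.72 (adjusted p = 0.0235, limma).

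Between DeltaTcf and dkk1, 3 were higher and 1 lower in DeltaTcf, beside 3.48% of all (1.77% higher and 1.71% lower). The eIF2 subunits eif2s2 and eif2s1a were higher by 0.70 and 0.55 (limma with Benjamini-Hochberg adjusted p = 0.000168 and 0.0048) and eif3d by 0.31 (adjusted p = 0.0251, arrays overlapping). The gene eif1axa was lower by 0.61 (adjusted p = 0.00105, limma). The libraries labelled DeltaTcf thus shared the high dkk1b level of the dkk1 line but differed from it in these factors.

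For the dominant-negative Fgf receptor, 2 members rose and 4 fell at 30 min, 8.70% of members beside 3% of all tested probe sets (1.65% higher and 1.35% lower). At 1 h 0 rose and 1 fell, 1.45% of members beside 3.42% of all (1.82% higher and 1.6% lower), with 13 members at an unadjusted p under 0.05. How many of all tested probe sets lay under that unadjusted threshold was not counted. The median of members was −0.04 and 0.03 at the 2 times, and −0.02 over all tested probe sets at both. The GAPDH 3′ to 5′ log2 ratio was 3.75 ± 0.92 (SD, n = 4) in dnfgfr1 and 3.06 ± 0.52 in wild type at 30 min, and 3.86 ± 0.33 and 2.63 ± 0.45 at 1 h. Its part in the results was not tested.

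One probe set of the eIF1A gene eif1axa (Dr.15002.1.S1_a_at) fell at both times. At 30 min wild type read 10.05, 10.17, 10.06 and 10.07, and dnfgfr1 9.63, 9.66, 9.50 and 9.47. At 1 h wild type read 10.03, 10.08, 10.27 and 9.95, and dnfgfr1 9.71, 9.67, 9.78 and 9.56. Neither time showed an overlap. The difference was −0.53 ± 0.12 (SE; limma with Benjamini-Hochberg adjusted p = 0.00598) at 30 min and −0.40 ± 0.12 (SE; adjusted p = 0.0482) at 1 h. The latter call was lost without any 1 dnfgfr1 library, without wild type replicate 1, 2 or 3, and with the deposited scaling, a pseudocount of 1, no filter on dim probe sets, or only the groups compared, with or without the replicate block. The other probe set of the gene (Dr.15002.1.S1_at) passed the test at neither time, with −0.12 (adjusted p = 0.870, limma) at 30 min and −0.16 (adjusted p = 0.811) at 1 h.

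At 30 min eef1db read 11.09 to 11.28 in dnfgfr1 and 10.33 to 10.54 in wild type, and rose by 0.74 ± 0.19 (SE; limma with Benjamini-Hochberg adjusted p = 0.0147). At 1 h the dnfgfr1 libraries spread from 10.48 to 11.38 and the gene did not pass the test. The kinase gene eef2k read 7.69, 5.95, 7.46 and 7.61 in dnfgfr1 at 30 min, so that replicate 2 lay among the wild-type values of 5.73 to 6.10. Its rise of 1.26 ± 0.29 (SE; 2.39-fold, adjusted p = 0.00566, limma) therefore rests on 3 of 4 libraries.

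Smaller falls at 30 min were those of eif2s2 by 0.41 (limma with Benjamini-Hochberg adjusted p = 0.0487), of the cap-binding gene eif4ea by 0.37 (adjusted p = 0.0319) and of eif5b (Dr.25723.1.A1_at) by 0.36 (adjusted p = 0.0295). For eif5b the libraries read 9.24 to 9.38 in dnfgfr1 and 9.56 to 9.81 in wild type. No member differed between the 2 times in its response to dnfgfr1 in limma, beside 0.375% of all tested probe sets (0.188% higher and 0.188% lower), with 4 at an unadjusted p under 0.05. Over all tested probe sets the unadjusted count was not made. The smallest adjusted p was 0.455, for eef2k, whose response at 1 h minus that at 30 min was −1.04 ± 0.41 (SE).

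With retinoic acid few members passed the test, led by a fall of the kinase gene eif2ak3 at 3 h. At 1.5 h limma called 0 members, beside 4.34% of all tested probe sets (2.37% higher and 1.97% lower), with 10 at an unadjusted p under 0.05. The share of all tested probe sets at that unadjusted threshold was not counted. The 2 smallest p belonged to eif4a2 and eif3ha. The helicase gene eif4a2 read 9.11, 9.15, 9.78 and 9.66 in DMSO and 10.05, 9.97, 10.02 and 10.30 in RA, a difference of 0.66 ± 0.21 (SE; adjusted p = 0.055, limma). The eIF3 subunit gene eif3ha read 10.42 to 10.53 in DMSO and 9.96 to 10.26 in RA, a difference of −0.34 ± 0.11 (SE; adjusted p = 0.056, limma). The arrays of both genes did not overlap between groups, as was so for 11 members and for 12.7% of all tested probe sets. At 1.5 h the GAPDH 3′ to 5′ log2 ratio was −0.54 ± 0.54 (SD, n = 4) in DMSO and 0.77 ± 0.74 in RA. The acta1 ratio was 4.40 ± 1.82 and 2.53 ± 0.38 in the same order, and the part of either was not tested.

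At 3 h 1 member rose and 3 fell, beside 3.68% of all tested probe sets (2.23% higher and 1.45% lower). The widest change was in eif2ak3 (Dr.15219.2.S1_a_at), the kinase that phosphorylates eIF2 under stress of the endoplasmic reticulum. It read 8.17, 7.94, 8.12 and 8.08 in DMSO and 6.47, 6.52 and 6.27 in RA. It fell by 1.66 ± 0.25 (SE; 3.15-fold, limma with Benjamini-Hochberg adjusted p = 8.03e-07). At 1.5 h DMSO had read 7.12 to 7.70 and RA 7.05 to 7.92, and the response differed between the times by −1.74 ± 0.33 (SE; adjusted p = 0.00177, limma). It was the only member for which that difference passed the test, beside 0.721% of all (0.365% higher and 0.356% lower). In DMSO the gene had itself risen by 0.74 ± 0.23 (SE; adjusted p = 0.0446, limma) from 1.5 h to 3 h. The other 2 probe sets of eif2ak3 were too dim to be tested.

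The gene eef1db read 10.78 to 11.14 in DMSO and 9.92, 10.02 and 10.04 in RA at 3 h, and fell by 0.98 ± 0.20 (SE; 1.97-fold, limma with Benjamini-Hochberg adjusted p = 0.000703). The probe set Dr.20010.3.S2_at of eif5a read 8.69 to 8.97 in DMSO and 9.57, 9.68 and 9.75 in RA, and rose by 0.85 ± 0.20 (SE; 1.81-fold, adjusted p = 0.00259, limma). The second probe set of that gene (Dr.20010.3.S1_at) was never called. The gene eif2b1, the regulatory alpha subunit of eIF2B, fell by 0.55 ± 0.16 (SE; adjusted p = 0.0406, limma). It read 7.51 to 8.01 in DMSO and 6.86 to 7.45 in RA, and its call was lost in 7 of 13 alternatives.

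**Figure D4:**
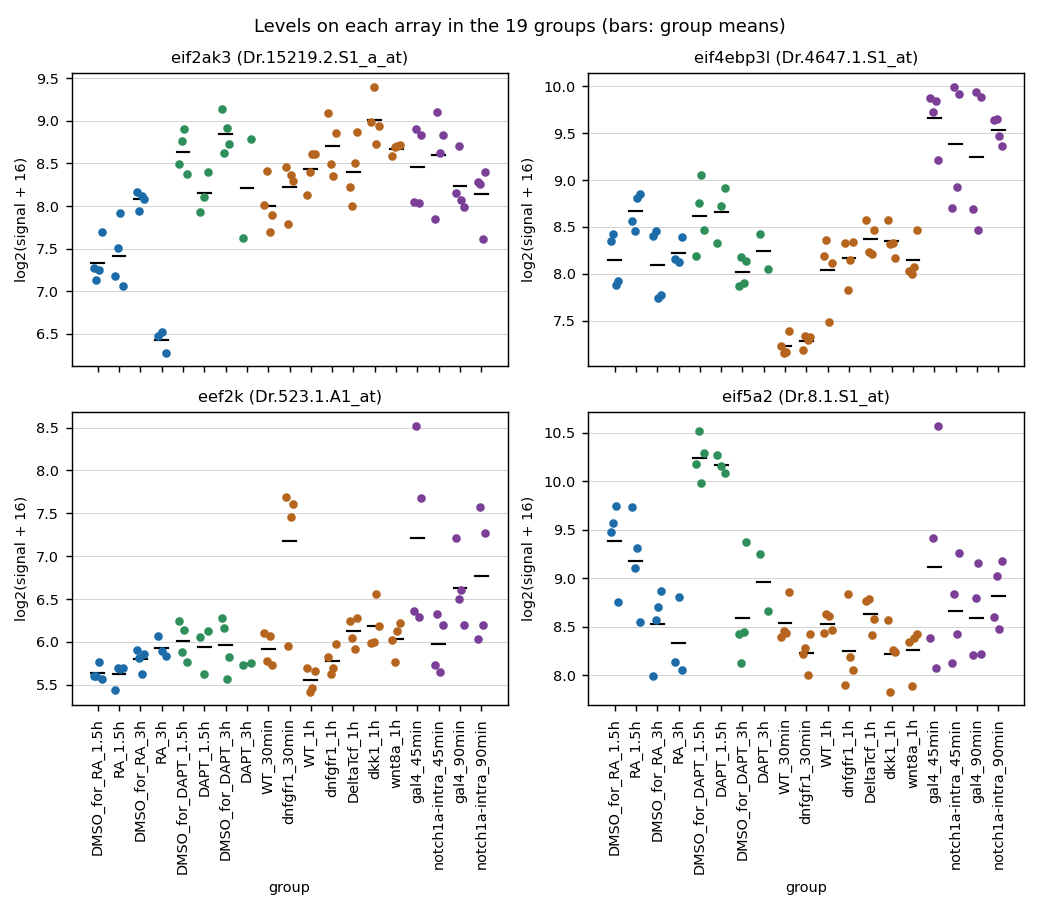
Log2 level of the regulators eif2ak3, eif4ebp3l and eef2k and of eif5a2 on each array over the 19 groups. Colours mark the 4 experiments (blue for RA, green for DAPT, orange for the wild-type-controlled heat-shock lines, purple for gal4 and notch1a-intra) and black bars the group means, with eif2ak3 lowest in RA at 3 h at 6.42.

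DAPT for 1.5 h raised 3 members and lowered 0, beside 4.09% of all tested probe sets (1.87% higher and 2.22% lower). Of these, 2 were among the 5 eIF2B genes, whose median difference was 0.51, against 0.03 over all members and −0.01 over all tested probe sets. The gene eif2b2 read 9.22, 9.51, 9.11 and 9.26 in DMSO and 9.91, 9.57 and 9.88 in DAPT. It rose by 0.51 ± 0.12 (SE; limma with Benjamini-Hochberg adjusted p = 0.00889). The gene eif2b4 read 7.61 to 8.03 in DMSO and 8.23 to 8.57 in DAPT, and rose by 0.52 ± 0.13 (SE; adjusted p = 0.0162, limma). The eIF3 subunit gene eif3ea rose by 0.28 ± 0.08 (SE; adjusted p = 0.0471, limma). With only these 2 groups in the fit, 0 of the 3 passed, and without DMSO replicate 3, DAPT replicate 1 or DAPT replicate 2 the count was 1 each time.

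At 3 h DAPT had 2 libraries. There 3 members rose and 4 fell, beside 5.35% of all tested probe sets (2.27% higher and 3.08% lower). The 2 libraries averaged the highest of all groups for the germ cell gene nanos3 at 7.56 and the blood genes hbae3 at 8.94 and gata1a at 7.57. They averaged the lowest for the mesoderm genes tbx16 at 9.32 and tbx6 at 8.22, and for the segmentation clock gene her1 at 7.0. Other markers of these tissues are not given here, so no shift of a cell type is read from them. Whether cell content or the drug set these levels was not tested, nor was their part in the results. Without DAPT replicate 1 the count of members called was 0, and with the 2 groups alone it was 0 as well.

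The translational transporter gene eif4enif1, whose protein carries eIF4E into the nucleus and holds it in a repressed state, read 5.70, 6.13, 7.0 and 6.88 in DMSO and 8.22 and 7.11 in DAPT. It rose by 1.24 ± 0.35 (SE; limma with Benjamini-Hochberg adjusted p = 0.0236). In DMSO at 1.5 h the same probe set spread from 5.40 to 7.81, a range that takes in the lower of the DAPT values. The 4E-binding protein gene eif4ebp1 read 9.27 to 10.13 in DMSO and 10.29 and 10.17 in DAPT, and rose by 0.51 ± 0.16 (SE; adjusted p = 0.0482, limma). The eIF3e gene eif3eb read 4.08 to 5.30 in DMSO and 5.72 and 5.95 in DAPT, and rose by 0.93 ± 0.27 (SE; adjusted p = 0.0302, limma). These DMSO libraries averaged 4.90, the lowest of all groups for that probe set, and reached down to the low end of the scale.

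The falls were smaller. The helicase gene eif4a3, part of the exon junction complex, fell by 0.39 (limma with Benjamini-Hochberg adjusted p = 0.0267), eif3i by 0.37 (adjusted p = 0.0343) and eif3c by 0.33 (adjusted p = 0.0168). The gene eef2b fell by 0.20 (adjusted p = 0.0161, limma), and its difference was −0.01 under the deposited scaling. In the test of the response at 3 h minus that at 1.5 h, 1 member was higher and 4 were lower, beside 3.96% of all tested probe sets (1.78% higher and 2.18% lower). They were eif3eb at 1.19 and eif2b2, eif3i, eif3ea and eef2b at −0.65, −0.57, −0.42 and −0.25 (adjusted p = 0.0495, 0.0326, 0.0205, 0.046 and 0.0325, limma). The value of eif3eb uses the DMSO libraries at 3 h that reached the low end of the scale. For eif2b2, DAPT read 9.16 and 9.14 at 3 h, within the 9.0 to 9.51 of its DMSO libraries.

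Active Notch was compared with gal4 alone. At 45 min 0 members rose and 2 fell in the libraries labelled notch1a-intra, beside 4.09% of all tested probe sets (2.13% higher and 1.96% lower). Samples of the same replicate number deviated together here, but the main fit, whose values follow, did not pair them. With only these groups and the replicate as a block, 0 members were called. Without replicates 2 and 4 of notch1a-intra, which lacked raised notch1a, 8 were called. That fit kept replicates 2 and 4 of gal4, so replicate and active Notch cannot be told apart in it. The scaffold gene eif4g3a (Dr.16991.1.A1_at) read 6.09 to 6.50 in gal4 and 5.50 to 5.83 in notch1a-intra, and fell by 0.62 ± 0.16 (SE; limma with Benjamini-Hochberg adjusted p = 0.0177). It fell by 0.72 without the 2 doubted libraries. The kinase gene eef2k read 6.36, 8.52, 6.29 and 7.68 in gal4 and 5.73, 6.32, 5.65 and 6.20 in notch1a-intra. Within both groups replicates 2 and 4 were the higher ones, the groups overlapped, and the fall of 1.24 ± 0.29 (SE; 2.36-fold, adjusted p = 0.00675, limma) was lost with the block. At 45 min the acta1 3′ to 5′ log2 ratio was 0.88 ± 0.21 (SD, n = 4) in gal4 and 3.81 ± 0.90 in notch1a-intra. The GAPDH ratio was 3.75 ± 0.19 and 3.27 ± 0.40 in the same order. The part of either in the results was not tested here.

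At 90 min 3 members rose and 1 fell, beside 6.87% of all tested probe sets (3.72% higher and 3.15% lower). All 3 rises were among the 17 probe sets of eIF4F and its helpers, whose median difference was 0.17, against −0.03 over all members. The 2 probe sets of the helicase gene eif4a1a rose together. Dr.24841.2.S1_at read 8.72, 8.42, 7.38 and 8.07 in gal4 and 8.93, 9.84, 9.13 and 9.75 in notch1a-intra. Dr.24841.1.S1_at read 9.93, 9.51, 9.98 and 9.42 in gal4 and 10.99, 10.53, 11.16 and 10.63 in notch1a-intra. Neither overlapped.

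The differences were 1.27 ± 0.25 (SE; 2.40-fold, limma with Benjamini-Hochberg adjusted p = 0.000408) and 1.12 ± 0.15 (SE; 2.17-fold, adjusted p = 3.67e-07). For the former, the response at 90 min exceeded that at 45 min by 1.36 ± 0.35 (SE; adjusted p = 0.0458, limma), the only member with such a call, beside 0.691% of all (0.306% higher and 0.385% lower). That call was lost when gal4 at 45 min replicate 2, notch1a-intra at 45 min replicate 1 or 3, gal4 at 90 min replicate 3 or 4, or notch1a-intra at 90 min replicate 2 or 4 was left out. It was also lost with no filter on dim probe sets, with only the groups compared (adjusted p = 0.318, limma) and with the replicate block in that fit (adjusted p = 0.0975). The 45 min group holds the 2 libraries that lacked raised notch1a, and without them the value was 1.79 (adjusted p = 0.00599, limma). That fit kept their gal4 partners, so replicate and active Notch cannot be told apart in it. The gene eif4g2a (Dr.24527.1.S1_at), an eIF4G relative, read 7.67, 6.31, 7.10 and 6.69 in gal4 and 8.17, 7.11, 7.94 and 7.51 in notch1a-intra. It rose by 0.74 ± 0.21 (SE; adjusted p = 0.0174, limma) although the groups overlapped, since replicates 1 and 3 were higher than 2 and 4 in both. The other probe set of eif4g2a (Dr.4412.10.S1_at) did not pass the test here. The subunit gene eif3m fell by 0.22 ± 0.07 (SE; adjusted p = 0.0395, limma).

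**Figure D5:**
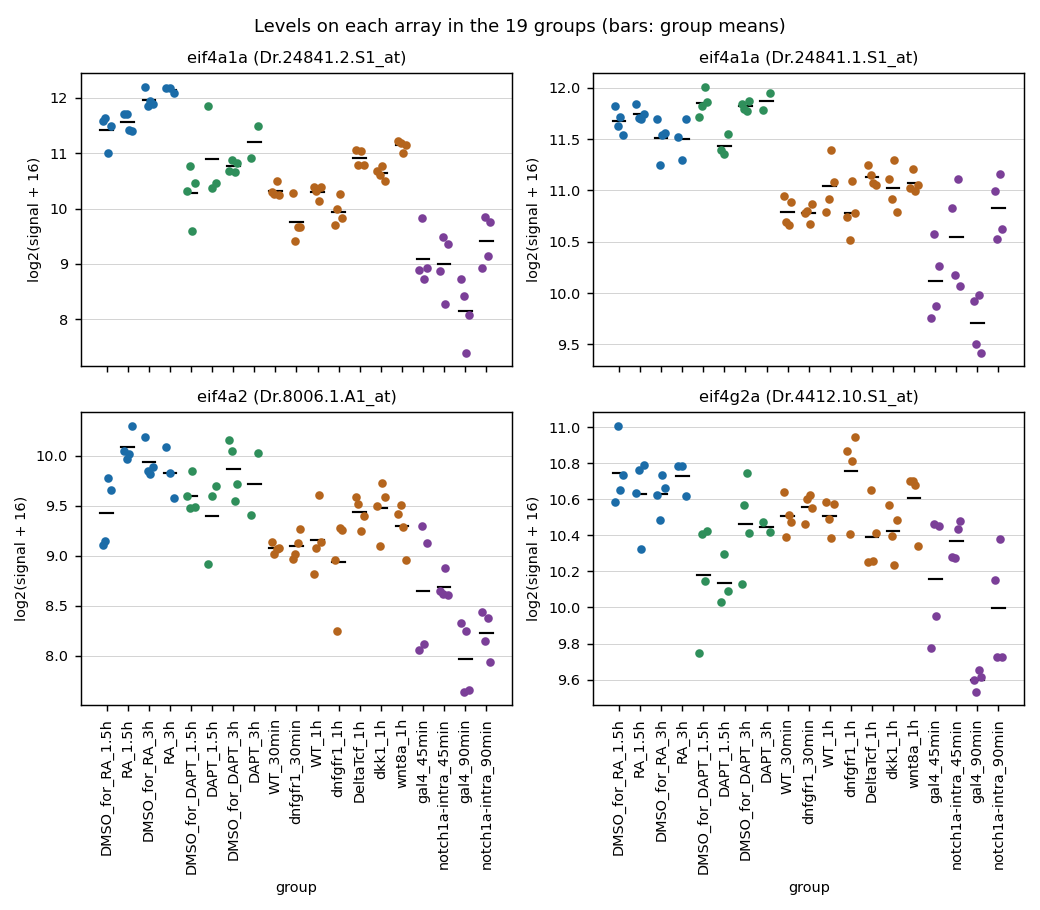
Log2 level of both eif4a1a probe sets, of eif4a2 and of eif4g2a on each array over the 19 groups, with colours by experiment (blue RA, green DAPT, orange wild-type-controlled heat-shock lines, purple gal4 and notch1a-intra) and black bars at group means. Both eif4a1a probe sets are lowest in gal4 at 90 min, at 8.15 and 9.71, and higher in notch1a-intra at that time.

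The controls themselves changed with time. In gal4 0 members rose and 3 fell from 45 to 90 min, beside 5.12% of all tested probe sets (2.19% higher and 2.92% lower), and all 3 were of eIF4F and its helpers, with a median of −0.21. The scaffold relative eif4g2a (Dr.4412.10.S1_at) read 9.78, 10.46, 9.95 and 10.45 at 45 min and 9.53 to 9.66 at 90 min, and fell by 0.56 ± 0.14 (SE; limma with Benjamini-Hochberg adjusted p = 0.00752). The gene eif4a1a (Dr.24841.2.S1_at) read 8.72 to 9.83 at 45 min and 7.38 to 8.72 at 90 min, and fell by 0.94 ± 0.25 (SE; 1.92-fold, adjusted p = 0.0141, limma). The paralog eif4a2 read 8.06 to 9.30 and 7.64 to 8.33, and fell by 0.68 ± 0.21 (SE; adjusted p = 0.0409, limma). The other probe sets of eif4g2a (Dr.24527.1.S1_at) and eif4a1a (Dr.24841.1.S1_at) did not pass the test between these times. Arrays of both helicase genes overlapped, and without gal4 at 45 min replicate 2 the count of falls was 0. The rises of active Notch at 90 min share these gal4 libraries.

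In heat-shocked wild type 1 member rose and 7 fell from 30 min to 1 h, 11.6% of members beside 4.37% of all tested probe sets (1.81% higher and 2.56% lower). The median of members was −0.11 and that of all −0.01. Of 14 eIF3 subunits 4 fell, with a median of −0.25. The subunit gene eif3ea read 11.56 to 11.75 at 30 min and 11.23 to 11.42 at 1 h, and fell by 0.30 ± 0.08 (SE; limma with Benjamini-Hochberg adjusted p = 0.0147). The gene eif3ha read 10.37, 10.78, 10.87 and 10.87 at 30 min and 10.13, 10.47, 9.97 and 10.03 at 1 h, and fell by 0.57 ± 0.11 (SE; adjusted p = 0.000481, limma), with 1 overlapping library. The gene eif2b2 fell by 0.39 (adjusted p = 0.0325, limma), and the exchange factor gene eef1b2, the eIF3 genes eif3f and eif3m and eif2a made up the rest.

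The 4E-binding protein gene eif4ebp3l was the only rise. It read 7.22, 7.15, 7.17 and 7.39 at 30 min and 8.19, 8.36, 7.48 and 8.12 at 1 h, without overlap, and rose by 0.80 ± 0.23 (SE; 1.75-fold, limma with Benjamini-Hochberg adjusted p = 0.0301). The dnfgfr1 libraries read 7.19 to 7.34 at 30 min and 7.83 to 8.34 at 1 h, a step that was not tested. Without wild type at 1 h replicate 1, 3 or 4, or wild type at 30 min replicate 2, 3 or 4, the count of the 8 calls was 1 to 4. In the gal4 and notch1a-intra libraries eif4ebp3l ranged from 8.47 to 9.997 and passed the test in none of their comparisons. Part of that range lay between replicates. In notch1a-intra at 45 min replicates 1 and 3 read 8.70 and 8.92 and replicates 2 and 4 read 9.997 and 9.92, and in gal4 at 90 min replicates 1 and 3 read 8.69 and 8.47 and replicates 2 and 4 read 9.94 and 9.89. The other groups of that experiment did not show this step.

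In the DMSO controls of RA, 4 members rose and 6 fell from 1.5 h to 3 h, 14.5% of members beside 4.37% of all tested probe sets (1.79% higher and 2.58% lower). The falls were led by eif4bb, which read 10.72 to 10.88 at 1.5 h and 9.98 to 10.27 at 3 h and fell by 0.64 (limma with Benjamini-Hochberg adjusted p = 0.000544). The probe set Dr.25723.1.A1_at of eif5b fell by 0.54 (adjusted p = 0.000292, limma), with 9.48 to 9.69 at 1.5 h and 9.0 to 9.12 at 3 h. The genes eif2a, eif2s2, eif3c and eef2b fell by 0.51, 0.42, 0.26 and 0.17 (adjusted p = 0.0111, 0.0304, 0.025 and 0.0114, limma).

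The rises were eif2ak3, described with RA, the 4E-binding protein gene eif4ebp2 by 0.42 (adjusted p = 0.0278, limma, arrays overlapping), eif5a2 (Dr.8.1.S2_at) by 0.38 and the eEF1B gene eef1g by 0.34. The last of these, at 11.79 to 11.96 and then 12.19 to 12.28, had an adjusted p of 0.000185 in limma, but under the deposited scaling its difference was 0.17 with an adjusted p of 0.278. For eif5a2 the deposited scaling gave 0.18 with an adjusted p of 0.145.

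In the DMSO controls of DAPT, 3 members rose and 3 fell from 1.5 h to 3 h, beside 4.83% of all tested probe sets (1.76% higher and 3.07% lower). The gene eif5a2 (Dr.8.1.S1_at) read 10.18, 10.52, 9.98 and 10.29 at 1.5 h and 8.42, 8.13, 8.44 and 9.37 at 3 h. It fell by 1.65 ± 0.30 (SE; 3.14-fold, limma with Benjamini-Hochberg adjusted p = 0.000411). The DAPT libraries showed a like step, with 10.09 to 10.27 at 1.5 h and 8.66 to 9.26 at 3 h. The other probe set of eif5a2 (Dr.8.1.S2_at) read 11.87 to 11.95 at 1.5 h and 12.06 to 12.16 at 3 h in DMSO and was not called, so the probe sets of this gene disagree. The gene eif3eb fell by 0.95 ± 0.22 (SE; adjusted p = 0.00616, limma), reaching the low end of the scale at 3 h. The gene eif4e3 rose by 0.49 ± 0.13 (SE; adjusted p = 0.0191, limma), with 8.35 to 8.69 at 1.5 h and 8.95 to 9.04 at 3 h. The gene eef1g rose by 0.24 and was −0.08 under the deposited scaling.

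Further members of the paralog groups spanned less or more over the 19 groups. The helicase paralog eif4a1b spanned 0.87 and eif4a3 0.81. The cap-binding gene eif4ea spanned 1.52, from 8.53 to 10.05, and eif4e2rs1 0.79. The scaffold genes eif4g2b and eif4g3b spanned 1.49 and 1.65. The gene eif6 spanned 0.64, from 9.28 in RA at 3 h to 9.92 in DMSO at 1.5 h of the DAPT experiment. The methyltransferase gene eef1akmt2, which modifies eEF1A, ranged from 4.98 to 6.77, and the eEF1A gene eef1a1l3 spanned 0.76.

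Other parts of the translation machinery were counted in the same fit. Of 75 tested probe sets of cytosolic ribosomal proteins, 23 rose and 10 fell in DeltaTcf, 19 rose and 12 fell in dkk1 and 18 rose and 7 fell in wnt8a, beside 20.6%, 24.6% and 16.2% of all tested probe sets called in either direction. Their medians of 0.11, 0.04 and 0.06 became 0.54, 0.43 and 0.37 under the deposited scaling, so the size of that shift depends on the scaling. Of 24 probe sets of cytosolic tRNA synthetases and their partners, 0 rose and 3 fell in DeltaTcf, 1 rose and 6 fell in dkk1 and 0 rose and 6 fell in wnt8a, beside the same shares over all probe sets. The S6 kinase gene rps6kb1b, on the mTOR pathway to translation, fell by 1.17, 1.45 and 1.06 in these lines (limma with Benjamini-Hochberg adjusted p = 3.26e-07, 9.34e-10 and 3.80e-06). The asparagine synthetase gene asns, a target of the stress factor Atf4, rose by 0.81, 1.37 and 1.19 (adjusted p = 0.000112, 1.08e-09 and 7.48e-08, limma). Other genes of these pathways are not given here, so no state of either pathway is read from rps6kb1b or asns.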

How the data were processed

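Per the submitters' processing notes the authors made the deposited intensity values with MAS5, 1 signal per probe set and array. Per the file's values, arrays share a trimmed mean (2% trimmed per tail), 13 arrays are rounded to 1 decimal and array medians differ by up to 0.74 on the log2 scale. Per the labels' protocols RNA was amplified by a 3′ in vitro transcription kit. From 15617 probe sets 115 controls were removed, log2(intensity + 16) was quantile normalized, and the 10126 probe sets above the array median on at least 3 arrays were tested with limma 3.58.1 in R 4.3.3 (lmFit on 19 group means over 72 arrays, eBayes with trend and robust options), two-sided, with Benjamini-Hochberg adjustment over all of them and a threshold of 0.05. Arrays carry no read depth, and their number limits the precision. No 2 arrays were identical.

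Gene names come from GEO's platform annotation, with 10795 probe sets of 1 symbol, 135 of several and 4572 of none, and all 80 members matched by Entrez identifier. The 2 probe sets with an eif or eef symbol among several were left out.

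In each comparison the text was set to name up to 8 rises and 8 falls of largest size whose arrays did not overlap, or the 2 smallest p where none passed. To these came the widest, narrowest, brightest and dimmest members, probe sets of 1 gene with opposite calls, and paralogs of eIF4E, eIF4A, eIF4G, eIF5A, eIF6, eEF1A, eEF2 and the regulators. Members beyond that rule are named where a count was small, chosen after their values were seen. The members and lists were chosen with earlier results of these data known.

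Alternatives were the deposited scaling, a pseudocount of 1, no filter, array quality weights (statmod 1.5.0 was loaded), only the groups compared, the replicate number as a block, each replicate left out, and replicates 2 and 4 of notch1a-intra at 45 min left out. Samples of the same replicate number in notch1a-intra and gal4 at 45 min deviated together, with correlations of 0.31, 0.31, 0.30 and 0.21. The main fit did not pair them, and the pairs entered only the alternative with the replicate number as a block. In the other comparisons of groups with 3 or more shared numbers not every correlation exceeded 0.1.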

Additional observations from a re-analysis of the deposited data

Results flagged for a closer look

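Of 169 groups of 4 arrays examined, 4 held a library far from the others by Dixon's criterion. Chance gives about 1 in 20, and the 4 did not exceed that share. The cap-binding gene eif4ea read 8.76 in wild type at 30 min replicate 4, against 9.04 to 9.10 in the others. The probe set Dr.25723.1.A1_at of eif5b read 9.24 in dnfgfr1 at 30 min replicate 1, against 9.36 to 9.38. The gene eef1db read 11.15 in wnt8a replicate 2, against 11.42 to 11.43. The gene eef2b read 12.74 in DMSO of the RA experiment at 3 h replicate 3, against 12.77 in each of the others. At that level quantile normalization sets a value almost by its rank.

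Responses that differed between times in limma (Benjamini-Hochberg adjusted p under the threshold) were those of eif2ak3 to RA (−1.74), of eif2b2 (−0.65), eif3i (−0.57), eif3ea (−0.42), eef2b (−0.25) and eif3eb (1.19) to DAPT, and of eif4a1a (Dr.24841.2.S1_at) to active Notch (1.36), each the response at the later time minus that at the earlier. No explanation was tested for any of them.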

How the results depend on the processing

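Counts of members called, with the other settings in turn, were as follows. With the deposited scaling the count was 1 in place of 5 for the change of the DAPT response with time, 2 in place of 7 for DAPT at 3 h, 6 in place of 10 for the DMSO controls of RA and 0 in place of 1 for dnfgfr1 at 1 h. With a pseudocount of 1 the last was 0 too. With no filter on dim probe sets the counts were 3 for the DAPT change, 0 for dnfgfr1 at 1 h, 3 in place of 6 for dnfgfr1 at 30 min, 0 in place of 1 for the change of the Notch response and 5 in place of 8 for wild type over time.

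Array quality weights gave 0 for the DAPT change, 1 in place of 3 for DAPT at 1.5 h, 0 for DAPT at 3 h, 1 in place of 6 for the DMSO controls of DAPT, 4 in place of 1 for the change of the RA response, 4 in place of 0 for RA at 1.5 h, 2 for dnfgfr1 at 1 h, 10 for dnfgfr1 at 30 min, 13 for the Notch change, 18 in place of 2 for notch1a-intra at 45 min, 7 in place of 4 at 90 min, 16 for wild type over time and 23 in place of 14 for wnt8a. With only the groups compared, 0 were left for the DAPT change, DAPT at 1.5 h, DAPT at 3 h, dnfgfr1 at 1 h, gal4 over time (3 before), the Notch change and notch1a-intra at 45 min, 1 for the DMSO controls of DAPT and 3 for wild type. With a replicate block in that fit the counts were 0 for the DAPT change, DAPT at 1.5 h, dnfgfr1 at 1 h, gal4, the Notch change, notch1a-intra at 45 min and wild type, 1 for DAPT at 3 h and the DMSO controls of DAPT, and 2 for the RA change and dnfgfr1 at 30 min. The array quality weights in notch1a-intra at 45 min were 2.06 and 2.23 for the doubted replicates 2 and 4, and 0.27 and 0.33 for 1 and 3. In gal4 at 45 min they were 2.32 and 2.20 for replicates 1 and 3, and 0.36 and 0.29 for 2 and 4. With these weights replicate and active Notch cannot be told apart at 45 min or in the Notch change. Without the doubted notch1a-intra libraries, but with all gal4 libraries kept, 8 were called at 45 min. The cause of these changes was not tested.

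Leaving out each replicate gave 0 to 1 for RA at 1.5 h, 3 to 4 at 3 h, 1 to 4 for DAPT at 1.5 h, 0 to 8 at 3 h, 3 to 5 for dnfgfr1 at 30 min, 0 to 1 at 1 h, 15 to 22 for DeltaTcf, 17 to 19 for dkk1, 11 to 15 for wnt8a, 1 to 3 for dkk1 and for DeltaTcf against wnt8a, 3 to 4 for DeltaTcf against dkk1, 2 to 3 and 2 to 5 for notch1a-intra at 45 and 90 min, 1 to 10 for wild type, 0 to 4 for gal4, 6 to 9 and 2 to 7 for the DMSO controls of RA and DAPT, and 1 to 2, 0 to 6, 0 to 0 and 0 to 2 for the changes of the RA, DAPT, dnfgfr1 and Notch responses. Counts moved by over 1.5 times without these libraries: for RA at 1.5 h, DMSO replicate 3 or RA replicate 1 (1); for DAPT at 3 h, DMSO replicate 2 (4) or 3 (2) or DAPT replicate 1 (0); for dnfgfr1 at 30 min, dnfgfr1 replicate 4 or wild type replicate 1, 2 or 3 (3); for DeltaTcf against wnt8a, DeltaTcf replicate 3 or wnt8a replicate 2 or 4 (1); for dkk1 against wnt8a, dkk1 replicate 4 (1); for notch1a-intra at 90 min, gal4 replicate 2 or notch1a-intra replicate 1 or 3 (2); for the DMSO controls of RA, replicate 1 or 3 at 1.5 h or 1 at 3 h (6); for those of DAPT, replicate 1 or 4 at 1.5 h (2) or 2 at 3 h (3); for the RA change, DMSO replicate 2 or RA replicate 3 at 3 h (2); for the Notch change, gal4 at 45 min replicate 1 or 3 (2). The DAPT change moved to 2 without DMSO replicate 2 or 4 at 1.5 h or 3 at 3 h, to 1 without DAPT replicate 3 at 1.5 h, and to 0 and 3 without DAPT replicates 1 and 2 at 3 h. 

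Of 102 differences past the threshold taken into this count, 48 stayed past it in every alternative run. Some calls given above were outside it. The largest losses came with the replicate block, which kept 63. A reversal was seen for eef2b in wnt8a against wild type, 0.056 under the deposited scaling (adjusted p = 0.773, limma). Outside these 102, the calls given above for eef2b in DeltaTcf (0.36) and dkk1 (0.28) also changed sign under that scaling. So did the call of eef1g over time in the DMSO controls of DAPT (−0.08). Under that scaling the share of higher calls over all probe sets in the change of the RA response was 38.5% in place of 50.7%.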
